A study of Aethionema arabicum with 12 samples.

Results

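Cytochrome P450 genes other than the CYP707A abscisic acid hydroxylases were examined in imbibed seeds of *Aethionema arabicum*, a relative of Arabidopsis in the Brassicaceae. A gene model of the deposited table was taken as a P450 where its short description holds the words cytochrome P450, in any case. Models paired with the 4 CYP707A genes or with AT5G07990 were left out, 5 models in all. The rule gave 159 of the 24932 gene models, and it used no expression value. The descriptions number 145 of them into 36 families and leave 14 without a number.

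P450s are haem enzymes that use molecular oxygen and electrons handed over by a reductase to oxidise small, mostly lipophilic molecules. In plants, conserved families build or break down sterols, brassinosteroids, gibberellins, strigolactones and carotenoids, while others supply the monomers of cutin, suberin and lignin or the defence compounds of the Brassicaceae, such as glucosinolates and camalexin. Related families are gathered into clans, of which the clan named after family 71 is the largest in plants. Names such as CYP86A2 below are those of the paired Arabidopsis gene, and each stated role was found in Arabidopsis, not in *Aethionema*. Genomic positions are not part of the table, so a model is given by its identifier, in which LG stands before a linkage group number and sc before a scaffold number.

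All seeds were of the wild-type Cyprus accession and were imbibed on wet filter paper at 14 °C, and light periods were of white light at 100 µmol m-2 s-1. The groups were seeds kept for 7 d in light and then 7 d in darkness (called dark-kept), and seeds kept for 1 d (23 h), 7 d or 14 d in light, with 3 libraries each. Whole intact seeds that had not germinated were collected, so embryo, endosperm and seed coat were measured together. The series asks how gene expression changes as seeds stay under light without germinating, and how a following dark period alters it.

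Counts per library totalled 1299536 to 1900418 for dark-kept seeds, 3387609 to 3996148 at 1 d, 1596668 to 2689668 at 7 d and 916523 to 2448092 at 14 d. The 1 d libraries were the deepest, so depth cannot be told apart from condition in the comparison of 7 d with 1 d, while the totals of the other groups overlap. Replicate 3 of 7 d light differed from its replicates 1 and 2 by a chi-square per degree of freedom of 5.99 and 5.65, and replicate 2 of 14 d light from replicates 1 and 3 by 7.78 and 6.45, while all other replicate pairs lay between 1.14 and 3.54. Results that rest on these libraries are given with and without them. The seed storage and oil body markers comprised 8 models, and none was at 0. Their summed level was 3134 to 4300.0 scaled CPM in dark-kept seeds, 1079.7 to 1271 at 1 d, 2066 to 3301 at 7 d and 2349 to 5582 at 14 d. Scaled CPM are counts per 1000000 after scaling library sizes by trimmed mean of M values (TMM).

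A minority of the P450 models was read often enough to be tested. Of the 159 models, 69 (43.4%) passed the expression filter, against 61.4% of all 24932 models. Another 41 had no count in any of the 12 libraries, 25 had 1 to 10 counts in all, and 24 had more than 10 counts but stayed below the filter. The tested models had a median length of 2676 bp and the others 2603 bp. In the plot of detection by clan, clan 71 held 87 models, of which 35 were tested and 25 had no count. Clan 86, which holds the fatty acid hydroxylases, had 30 models with 9 tested. Clan 72 had 12 models with 7 tested. Clan 85, to which brassinosteroid enzymes belong, had 11 by the numbers in the descriptions, with 4 tested, among them CYP90D1. The single models numbered into clan 51 (sterol demethylase), clan 97 (carotenoid hydroxylase, CYP97B3) and clan 711 (strigolactone synthesis) were all tested, and so were 10 of the 14 models without a family number. Clans follow the family number in the description. The CYP97C1 model and the CYP90A1, CYP90B1 and CYP90C1 models have none there. They are counted among the 14 and not in clans 97 and 85.

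**Figure D1:**
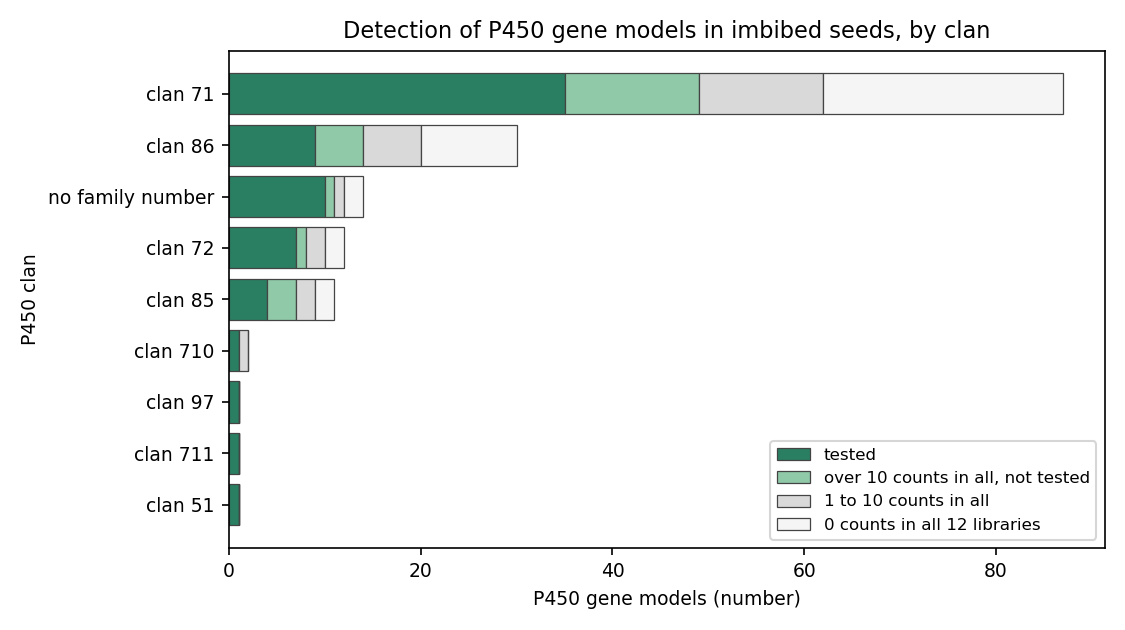
Number of P450 gene models per clan (x axis, number of models), split into tested models, models with more than 10 counts in all 12 libraries together that were not tested, models with 1 to 10 counts, and models with no count. Clan 71 holds 87 of the 159 models, and 25 of these had no count. Clans follow the family number in the description, so CYP90A1, CYP90B1, CYP90C1 and CYP97C1 stand under no family number.

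Detection differed between families. Of the 14 models of family 96, 1 was tested and 9 had no count, and of the 9 models of family 79, which starts glucosinolate synthesis, 1 was tested. None of the 5 models of family 82 was tested. By contrast, 5 of 6 models of family 81 and 6 of 9 models of family 86 were tested. Models whose identifiers run closely together also differed. Between Aa31LG6G15700 and Aa31LG6G15820 lie 11 P450 models of families 71, 76, 82, 94, 96 and 706, of which 8 had no count and 1 was tested. Between Aa31LG6G14190 and Aa31LG6G14270 lie 6 P450 models, mostly of family 81, of which 5 were tested. The descriptions number the CYP81F1 model of this run into family 91, and it is counted there. Identifier numbers show order only, and distances are not given. Reads shared between such near copies could have been split or dropped in counting, so values of close relatives are less certain than those of single genes.

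P450 transcripts together took a small share of all reads. All P450 models held 0.397% to 0.436% of counts in dark-kept seeds, 0.398% to 0.404% at 1 d, 0.425% to 0.479% at 7 d and 0.438% to 0.519% at 14 d. Levels of different genes are compared here per length, as the deposited RPKM (reads per kilobase of gene length and per 1000000 counted reads), with the limit that a gene length may include introns. A CYP709B2 model (Aa31LG1G28320) ranked 1 in each of the 4 conditions. Its RPKM was 167 ± 21.1 in dark-kept seeds, 74.5 ± 5.99 at 1 d, 153 ± 25.3 at 7 d and 203 ± 44.8 at 14 d of light (SD, n = 3 each). The spreads of the 3 later conditions overlap, and the 1 d value lies below all of them.

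A CYP71B10 model (Aa31LG3G13150) ranked 2 in the dark-kept, 7 d and 14 d seeds, with RPKM of 116 ± 12.8, 83.9 ± 17.6 and 123 ± 25.9, and ranked 5 after 1 d with 44.9 ± 1.36. A CYP71B13 model (Aa31LG11G4390) ranked 3 in those 3 conditions, with 84.2 ± 15.4, 56.2 ± 16.5 and 79.5 ± 27.7 RPKM, and 8 after 1 d with 32.2 ± 2.03. A CYP89A6 model (Aa31LG2G2140), which the short description numbers into family 87 and the long one into CYP89A, was among the 8 highest in each condition. Its RPKM was 41.3 ± 2.32 in dark-kept seeds, 50.6 ± 0.920 at 1 d, 42.2 ± 0.984 at 7 d and 45.3 ± 5.09 at 14 d, and it passed the test in none of the 4 comparisons. With libraries scaled by total counts it was called lower at 7 d against 1 d (adjusted p = 0.0321). The CYP94D2 model (Aa31LG10G11450) was also among the 8 highest throughout, at 34.5 ± 1.99, 52.5 ± 2.23, 40.3 ± 2.51 and 48.4 ± 3.25 RPKM in the same order. The first day differed in its lower ranks. A CYP81F1 model (Aa31LG6G14270) with 43.0 ± 0.460 RPKM, the CYP51G1 model (Aa31LG1G3080) with 36.7 ± 1.41 RPKM and a short CYP71A28 model of 540 bp (Aa31sc20G190) with 45.1 ± 4.00 RPKM were among the 8 highest only there.

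Seeds at 7 d were set against seeds at 1 d to ask what a week in light changes relative to the end of the first day. P450 transcripts moved in both directions. The strigolactone enzyme gene CYP711A1, the cutin hydroxylase gene CYP86A2 and the CYP71B21 and CYP81D1 genes rose. Those that fell included 4 genes of glucosinolate and camalexin synthesis, the growth gene CYP78A7, the cutin gene CYP86A4 and the fatty acid enzyme gene CYP77A4. Some of these falls were partly set by the expression filter, as given below. Of the 69 tested models, 29 rose and 16 fell in edgeR's quasi-likelihood test at an adjusted p under 0.05. Over all 15301 tested genes, 30.7% were called higher and 29.7% lower, 60.4% in all. The counts by family or pathway given below for this comparison are to be read beside these shares. The median log2 fold change was 0.11 over the tested P450 models and 0.02 over all tested genes. In clan 71, 14 of 35 tested models rose and 10 fell, in clan 86 4 of 9 rose and 3 fell, and in clan 72 4 of 7 rose and 3 were not called. Without replicate 3 of 7 d light, 27 of 74 tested models were called higher and 16 lower, beside 27.3% and 29.9% of all tested genes. Without replicate 2 of 14 d light, 30 of 70 were higher and 19 lower, beside 32% and 33.4%. With libraries scaled by total counts in place of TMM, 23 were higher and 20 lower, and 41.7% of all called genes were then higher, against 50.8% with TMM. That scaling moved the median of all tested genes to -0.11. Each library pools whole seeds, so fewer cells of a type and less RNA per cell cannot be told apart.

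**Figure D2:**
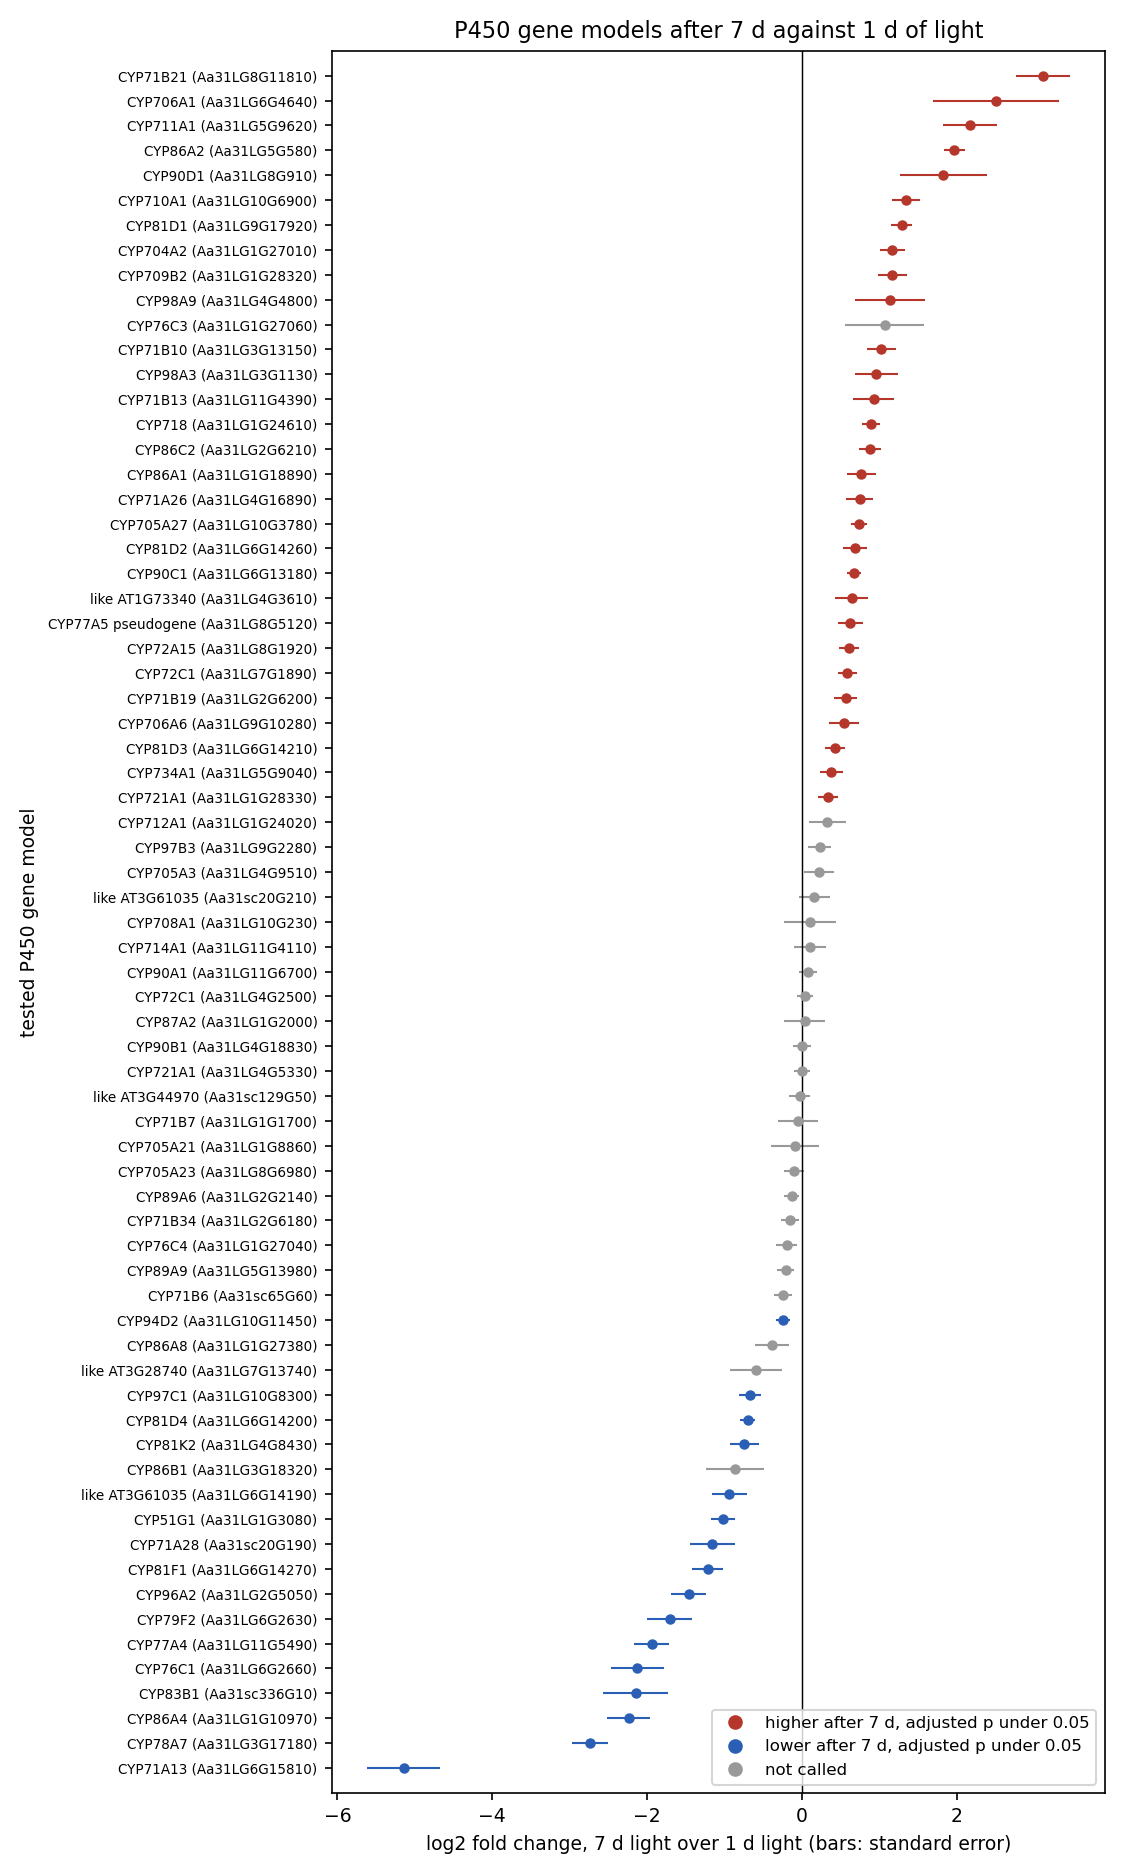
log2 fold change (x axis) of the 69 tested P450 gene models (y axis, named after the paired Arabidopsis gene) for 7 d over 1 d of light, with bars of 1 standard error; red and blue points are models called higher and lower and grey points are not called. The 29 models called higher reach 3.11 and the 16 called lower reach -5.14, a fitted value that depends on edgeR's prior count because the CYP71A13 model had 2 counts after 7 d.

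Markers of other seed tissues moved in the same comparison. The summed level of 4 endosperm marker models was 218 to 232 scaled CPM after 7 d, against 163 to 173 after 1 d, and none of them was at 0. That of 7 root marker models, 1 of them at 0, was 48.5 to 55.2 after 7 d, against 31.3 to 33.5 after 1 d, and all 8 tested seed markers rose. Of the 3 tested endosperm models, NCED6 and NCED9 rose and MAN7 fell. NCED6 averaged 90.5 ± 11.1 scaled CPM after 7 d and 22.1 ± 0.870 after 1 d (SD, n = 3 each). MAN7 averaged 110 ± 6.63 and 135 ± 6.99 in the same groups. Of the root models, 1 was tested, and it rose. The part of these shifts in the P450 results was not tested.

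Of the 14 models paired with P450 genes of glucosinolate or camalexin synthesis, 5 were tested, of which 4 fell and 1 was not called. Their median log2 fold change was -1.71, against 0.02 over all tested genes. At least the CYP71A13 and CYP79F2 models were high only at 1 d and passed the expression filter through that group. Their falls were thus partly set by the filter, and the count and median given here include them. A CYP71A13 model (Aa31LG6G15810), whose enzyme forms a nitrile on the way to camalexin, had 0.368, 0.440 and 0 scaled CPM after 7 d, against 10.5, 13.1 and 14.1 after 1 d. The counts were 1, 1 and 0 after 7 d and 42, 48 and 62 after 1 d, so all but 2 of the reads of both groups were in the first-day seeds, and the level after 7 d was 41.5-fold lower (exact 95% interval 11.3 to 345), an interval that covers counting error only. The adjusted p was 1.63e-06. The model spans 24658 bp, far more than a P450 coding sequence.

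The CYP83B1 model (Aa31sc336G10), an enzyme of the indole glucosinolate core pathway, had 6.98, 14.9 and 1.90 scaled CPM after 7 d, against 33.1, 46.5 and 33.5 after 1 d. The groups did not overlap, but the 7 d libraries were far apart from each other. The log2 fold change was -2.15 ± 0.42 (SE, adjusted p = 0.000705). The CYP79F2 model (Aa31LG6G2630), which acts at the start of aliphatic glucosinolate synthesis, had 4.78, 2.64 and 1.90 scaled CPM after 7 d, against 9.77, 10.9 and 12.3 after 1 d. Each of the 7 d libraries was below each of the 1 d libraries, at a log2 fold change of -1.71 ± 0.29 (SE, adjusted p = 0.000217). The CYP81F1 model (Aa31LG6G14270), a tailoring enzyme of indole glucosinolates, had 32.0, 28.6 and 36.1 scaled CPM after 7 d, against 74.4, 75.7 and 73.2 after 1 d. The 1 d libraries agreed closely and lay far above the others, at -1.22 ± 0.20 (SE, adjusted p = 0.000202). These 4 calls held whichever library was left out, with adjusted p of at most 0.00566. The CYP71B6 model (Aa31sc65G60), which acts in indole carboxylate metabolism, had 45.6, 40.4 and 39.9 scaled CPM after 7 d, against 48.1, 52.8 and 49.0 after 1 d. Its groups did not overlap either, yet its difference of -0.24 ± 0.11 (SE, adjusted p = 0.0785) did not pass the test. It passed, as lower, without replicate 2 of 14 d light (adjusted p = 0.0421), replicate 1 of 7 d light (0.0394) or replicate 1 of the dark-kept seeds (0.0408), and with total-count scaling (0.0159).

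Other glucosinolate genes outside the P450s were tested for 6 models. Of these, 4 fell and 2 were not called, where 29.7% of all tested genes were called lower. Those not called were SOT17 (Aa31LG4G4400), at 0.24 ± 0.16, and SUR1 (Aa31LG8G17510), at 0.15 ± 0.10 (SE). UGT74B1 (Aa31LG7G7880) and UGT74C1 (Aa31LG5G5230) fell at -0.29 ± 0.11 and -0.60 ± 0.18 (SE). The other 2 fell further. The sulfotransferase gene SOT16 (Aa31LG4G4410) averaged 31.4 ± 13.7 scaled CPM after 7 d and 66.2 ± 4.91 after 1 d (SD, n = 3 each), and the regulator gene MYB51 (Aa31LG7G3260) 6.25 ± 3.41 after 7 d and 16.1 ± 1.39 after 1 d. Their log2 fold changes were -1.05 ± 0.23 (SE, adjusted p = 0.00172) and -1.27 ± 0.27 (SE, adjusted p = 0.00134).

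**Figure D3:**
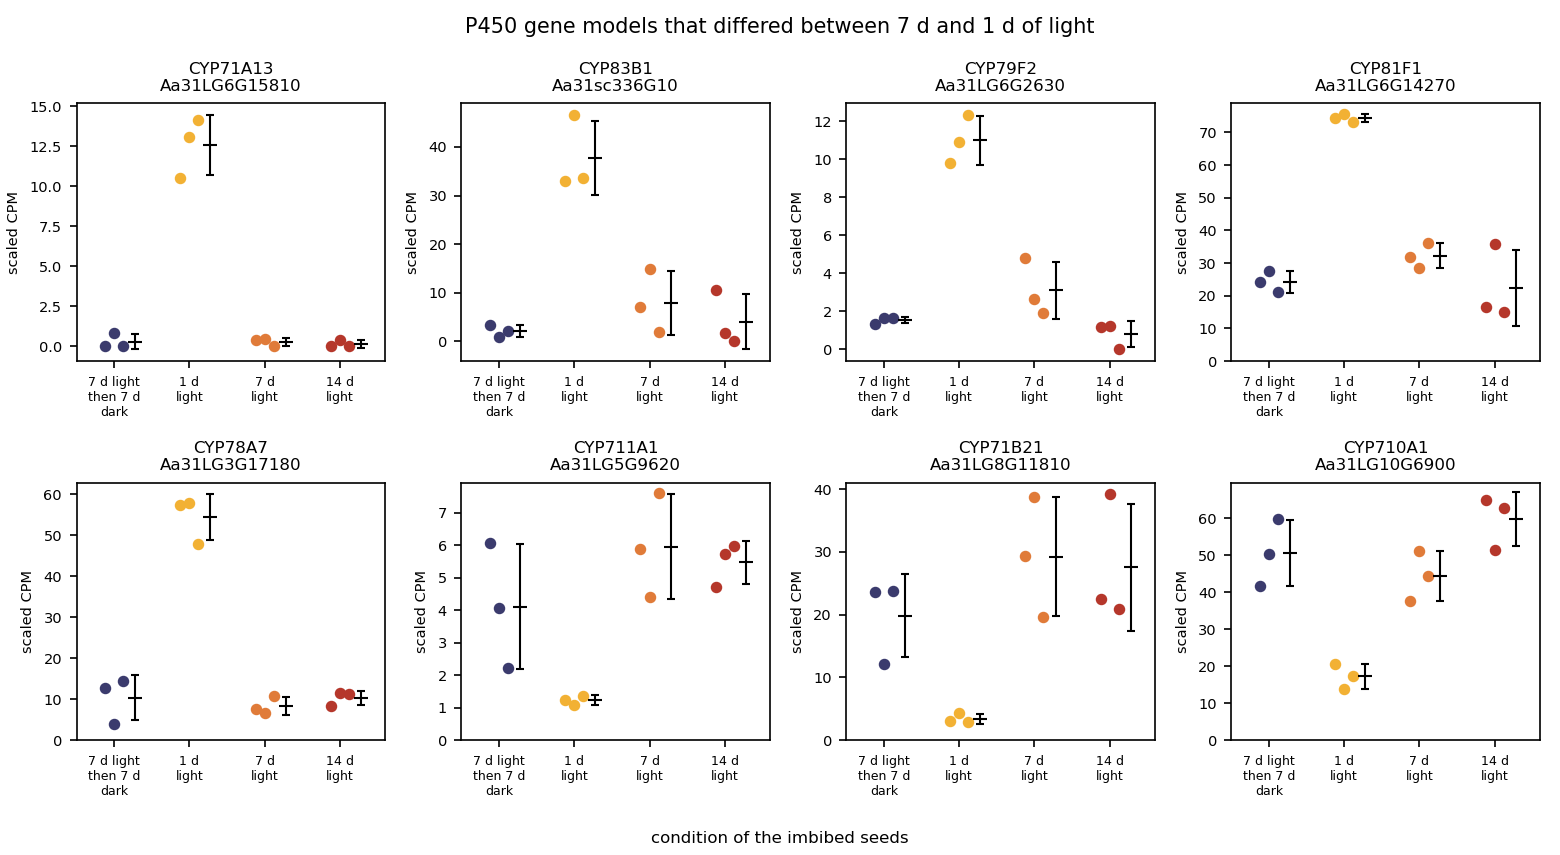
Scaled CPM (y axis) of 8 P450 gene models in each library of the 4 conditions (x axis); points are libraries and black bars the mean ± SD of 3. The top row and CYP78A7 are high only in the 1 d libraries, while CYP711A1, CYP71B21 and CYP710A1 are lowest there.

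Hormone genes among these P450 models rose or did not pass the test after 7 d, whereas the brassinosteroid gene CYP85A2, a P450 described under another name, fell (given with such genes further on). The CYP711A1 model (MAX1, Aa31LG5G9620), which oxidises carlactone in strigolactone synthesis, had 5.88, 4.40 and 7.61 scaled CPM after 7 d, against 1.25, 1.09 and 1.37 after 1 d. Its level was low throughout, and the 2 groups did not overlap. The log2 fold change was 2.17 ± 0.35 (SE, adjusted p = 0.000157). In brassinosteroid synthesis, 2 of 4 tested models rose and 2 were not called. The CYP90C1 model (ROTUNDIFOLIA3, Aa31LG6G13180), a late hydroxylase of the pathway, had 96.3, 95.8 and 105 scaled CPM after 7 d, against 59.9, 64.8 and 60.7 after 1 d. The libraries of each group lay close together and apart from the other group, at 0.68 ± 0.09 (SE, adjusted p = 3.38e-05). The related CYP90D1 model (Aa31LG8G910) had 3.68, 1.32 and 6.97 scaled CPM after 7 d, against 1.50, 0.544 and 0.912 after 1 d. These values overlap, and although its log2 fold change of 1.83 ± 0.56 (SE, adjusted p = 0.0124) passed, it no longer did without replicate 3 of 7 d light (adjusted p = 0.0702).

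The CYP90B1 model (DWARF4, Aa31LG4G18830), which catalyses an early step, averaged 63.6 ± 3.79 scaled CPM after 7 d and 63.6 ± 2.32 after 1 d. The CYP90A1 model (CPD, Aa31LG11G6700) averaged 46.7 ± 4.63 and 44.4 ± 4.79 in the same groups (SD, n = 3 each). Neither differed beyond its spread, with log2 fold changes of 0.00 ± 0.12 (SE, adjusted p = 0.994) and 0.08 ± 0.11 (SE, adjusted p = 0.555). Of 3 tested models of brassinosteroid inactivation, 2 rose. The CYP72C1 model Aa31LG7G1890 had 55.9, 52.7 and 43.7 scaled CPM after 7 d, against 34.8, 33.2 and 34.2 after 1 d. All 7 d libraries were above all 1 d libraries, at 0.59 ± 0.13 (SE, adjusted p = 0.00145). A second CYP72C1 model (Aa31LG4G2500) averaged 68.8 ± 7.48 after 7 d and 67.5 ± 2.45 after 1 d and was not called (0.04 ± 0.10). The CYP734A1 model (BAS1, Aa31LG5G9040) passed at 0.38 ± 0.15 (SE, adjusted p = 0.0457), but leaving out any single one of the 12 libraries ended that call, with adjusted p up to 0.162. Of the 10 tested brassinosteroid genes outside the P450s, 2 rose and 3 fell. The CYP714A1 model (Aa31LG11G4110), whose enzyme inactivates gibberellins, had 30.5, 27.7 and 43.1 scaled CPM after 7 d, against 29.6, 32.9 and 29.9 after 1 d. Its groups overlap, and the difference of 0.11 ± 0.20 (SE, adjusted p = 0.674) did not pass.

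The 2 tested sterol enzymes moved in opposite directions. The CYP710A1 model (Aa31LG10G6900), which forms stigmasterol, had 37.5, 51.0 and 44.4 scaled CPM after 7 d, against 20.6, 13.9 and 17.3 after 1 d. Each 7 d library was above each 1 d library, and the log2 fold change was 1.35 ± 0.18 (SE, adjusted p = 3.75e-05). The CYP51G1 model (Aa31LG1G3080), which removes a methyl group early in sterol synthesis, had 47.4, 48.3 and 38.7 scaled CPM after 7 d, against 88.5, 96.1 and 91.2 after 1 d. Here all 7 d libraries were below all 1 d libraries, at -1.02 ± 0.15 (SE, adjusted p = 9.35e-05). The carotenoid hydroxylase gene CYP97C1 (LUT1, Aa31LG10G8300), needed for lutein, had 47.4, 51.0 and 37.4 scaled CPM after 7 d, against 73.9, 69.9 and 74.1 after 1 d. It fell without overlap, by 0.67 ± 0.15 on the log2 scale (SE, adjusted p = 0.00147). The CYP97B3 model (Aa31LG9G2280) averaged 159 ± 17.1 after 7 d and 136 ± 1.73 after 1 d (SD, n = 3 each) and was not called, at 0.23 ± 0.15 (SE, adjusted p = 0.19).

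Genes of cutin, suberin and related lipid polymers split in direction. Of the 12 models paired with P450 genes of this role, 6 were tested, of which 2 rose, 2 fell and 2 were not called. The CYP86A2 model (Aa31LG5G580), a fatty acid hydroxylase of cutin synthesis, had 123, 108 and 112 scaled CPM after 7 d, against 30.8, 24.8 and 31.9 after 1 d. The 7 d libraries were all far above the 1 d libraries, at a log2 fold change of 1.97 ± 0.13 (SE, adjusted p = 1.95e-07), the smallest adjusted p among the 69 tested models in this comparison. Its close relative CYP86A4 (Aa31LG1G10970) had 3.31, 1.32 and 2.54 scaled CPM after 7 d, against 11.3, 10.6 and 13.0 after 1 d. It moved the other way, again without overlap, at -2.24 ± 0.27 (SE, adjusted p = 1.66e-05). CYP86A4 passed the expression filter through the 1 d libraries, where it is highest. The direction of its change was thus partly set by the filter, and the counts of this role include it. The CYP77A4 model (Aa31LG11G5490), which acts on fatty acids and is known for a part in embryo patterning, had 8.82, 6.59 and 5.71 scaled CPM after 7 d, against 27.6, 29.1 and 27.4 after 1 d. Its groups did not overlap, and it fell with -1.94 ± 0.23 (SE, adjusted p = 1.16e-05).

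The suberin hydroxylase gene CYP86A1 (HORST, Aa31LG1G18890) had 26.5, 16.3 and 20.9 scaled CPM after 7 d, against 14.0, 9.80 and 13.7 after 1 d. All 7 d libraries were above all 1 d libraries, and it rose with 0.77 ± 0.19 (SE, adjusted p = 0.00373). Without replicate 1 of 7 d light the adjusted p was 0.0544. The CYP86A8 model (LACERATA, Aa31LG1G27380) averaged 13.3 ± 0.936 after 7 d and 17.4 ± 1.08 after 1 d, and the CYP86B1 model (Aa31LG3G18320), a suberin hydroxylase of very long chains, 3.75 ± 2.08 after 7 d and 7.01 ± 1.46 after 1 d (SD, n = 3 each). Neither passed the test, at -0.39 ± 0.22 (SE, adjusted p = 0.136) and -0.87 ± 0.38 (SE, adjusted p = 0.0617). CYP86A8 passed, as lower, without replicate 1 of 14 d light (adjusted p = 0.0345). CYP86B1 did so without replicate 1 of 1 d light (0.0451), replicate 2 of 7 d light (0.0137), replicate 2 of 14 d light (0.0427) or replicate 3 of 14 d light (0.0488). In a fit of only the 6 libraries compared both passed, at 0.0451 for CYP86A8 and 0.0466 for CYP86B1. The single tested model of family 96, a CYP96A2 model (Aa31LG2G5050), had 10.7, 11.4 and 13.3 scaled CPM after 7 d, against 32.1, 27.8 and 36.3 after 1 d. It fell without overlap, at -1.46 ± 0.22 (SE, adjusted p = 9.1e-05).

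**Figure D4:**
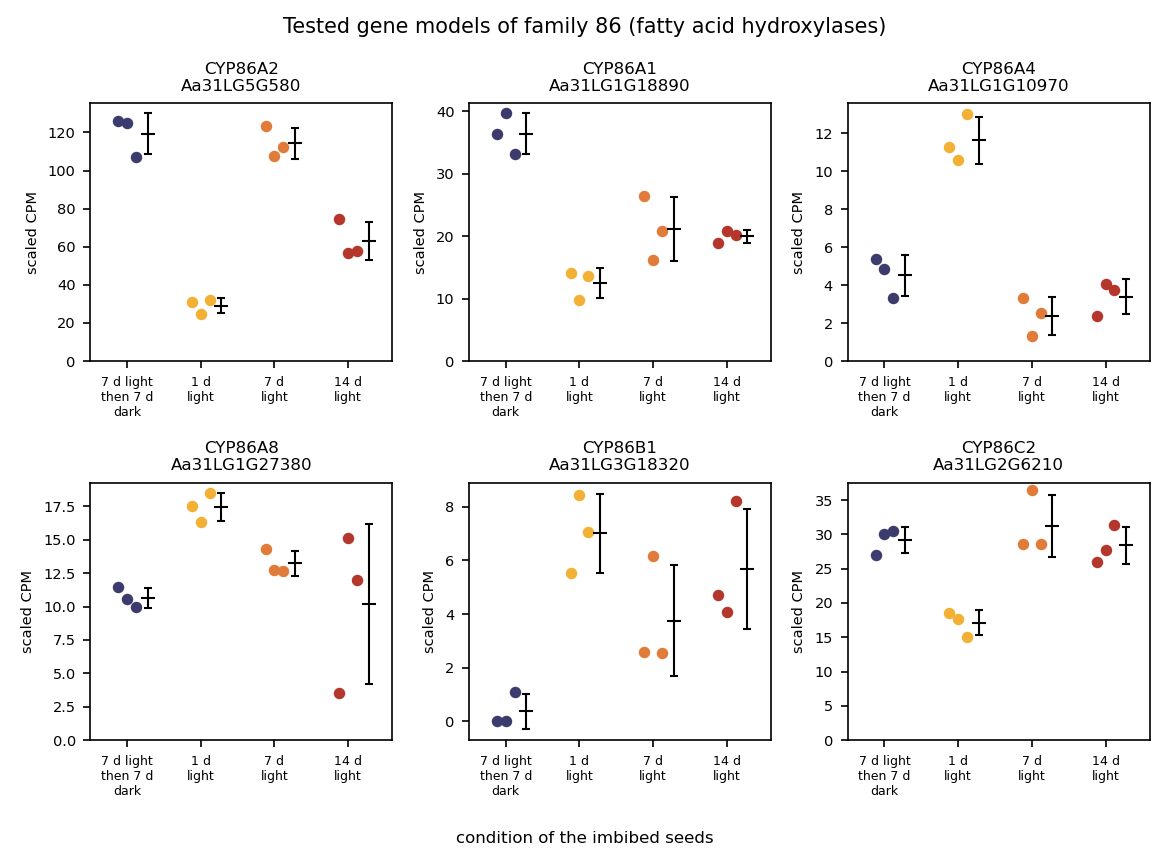
Scaled CPM (y axis) of the 6 tested gene models of family 86 in each library of the 4 conditions (x axis); points are libraries and black bars the mean ± SD of 3. CYP86A2 is high in dark-kept and 7 d seeds and lower at 1 d and 14 d of light, CYP86A4 is highest after 1 d, CYP86A1 is highest in dark-kept seeds, and CYP86B1 is at 0 in 2 of the 3 dark-kept libraries.

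In the phenylpropanoid pathway, which leads to lignin, 2 models were tested and both were called higher, 1 of them on unstable values. Of the 9 tested enzymes of the pathway outside the P450s, 2 rose and 3 fell, with a median log2 fold change of -0.13. The P450 genes CYP73A5 (Aa31LG5G6280) and CYP84A1 (Aa31LG6G13120), described under other names, were not called, at -0.21 ± 0.11 and 0.61 ± 0.26. The CYP98A3 model (Aa31LG3G1130), an aromatic hydroxylase of monolignol synthesis, had 13.2, 12.7 and 21.6 scaled CPM after 7 d, against 8.27, 7.62 and 7.53 after 1 d. Its groups did not overlap, at 0.96 ± 0.28 (SE, adjusted p = 0.00937). The CYP98A9 model (Aa31LG4G4800), whose enzyme acts on phenolamides of pollen, had 12.9, 9.67 and 1.90 scaled CPM after 7 d, against 5.26, 3.54 and 3.42 after 1 d. Those values overlap, and its call at 1.13 ± 0.45 (SE, adjusted p = 0.0444) was lost in 9 of the 12 fits that left out 1 library, with adjusted p up to 0.355.

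Among growth and terpene genes, 2 models fell. The CYP78A7 model (Aa31LG3G17180), which belongs to a subfamily that promotes organ and seed growth, had 7.72, 6.59 and 10.8 scaled CPM after 7 d, against 57.4, 58.0 and 47.9 after 1 d. The 1 d libraries lay far above the others, and the log2 fold change was -2.74 ± 0.24 (SE, adjusted p = 1.14e-06). It was the only one of 6 CYP78A models with enough reads for a test. The CYP76C1 model (Aa31LG6G2660), a linalool-oxidising enzyme of flowers, had 2.21, 2.20 and 3.17 scaled CPM after 7 d, against 9.27, 12.8 and 10.5 after 1 d. Its groups did not overlap, at -2.12 ± 0.34 (SE, adjusted p = 0.00015). CYP76C1 was high only at 1 d and passed the expression filter through that group, so the direction of its change was partly set by the filter.

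Of the 10 tested models of family 71, 5 rose, 2 fell and 3 were not called, with a median log2 fold change of 0.26. Beside this, 30.7% of all tested genes were called higher and 29.7% lower. The highest value of all tested P450 models belonged to a CYP71B21 model (Aa31LG8G11810), for which no role is stated here. It had 29.4, 38.7 and 19.7 scaled CPM after 7 d, against 3.01, 4.35 and 2.96 after 1 d. The groups were well apart although the 7 d libraries spread widely, and the log2 fold change was 3.11 ± 0.34 (SE, adjusted p = 7.27e-06). The CYP71B10 model (Aa31LG3G13150) had 123, 116 and 171 scaled CPM after 7 d, against 68.7, 67.8 and 64.3 after 1 d. It rose with 1.03 ± 0.18 (SE, adjusted p = 0.000345), and replicate 3 of 7 d light was its highest 7 d library. The CYP71B13 model (Aa31LG11G4390) had 154, 146 and 245 scaled CPM after 7 d, against 100.5, 96.1 and 88.0 after 1 d. The same library was highest here, and the change of 0.93 ± 0.27 (SE, adjusted p = 0.00856) had an adjusted p of 0.0537 without it. The CYP71A26 model (Aa31LG4G16890) had 19.5, 18.0 and 16.5 scaled CPM after 7 d, against 9.02, 10.1 and 13.2 after 1 d. It rose without overlap, at 0.74 ± 0.17 (SE, adjusted p = 0.00249). The short CYP71A28 model (Aa31sc20G190) had 8.82, 14.5 and 5.71 scaled CPM after 7 d, against 20.0, 23.7 and 23.3 after 1 d. It fell, at -1.16 ± 0.29 (SE, adjusted p = 0.00399).

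All 5 tested models numbered into family 81 passed the test, where 60.4% of all tested genes were called. The CYP81D1 model (Aa31LG9G17920) had 41.5, 40.9 and 46.3 scaled CPM after 7 d, against 18.3, 17.7 and 16.4 after 1 d. It rose with little spread in either group, at 1.29 ± 0.13 (SE, adjusted p = 3.99e-06). The CYP81D2 model (Aa31LG6G14260) had 336, 328 and 432 scaled CPM after 7 d, against 234, 225 and 221 after 1 d. Its groups did not overlap, and it rose at 0.69 ± 0.15 (SE, adjusted p = 0.00187), with an adjusted p of 0.0533 once the trend of fold change on gene length was removed. The CYP81D3 model (Aa31LG6G14210), named here after its values were seen, had 0.42 ± 0.13 and lost its call without replicate 2 of 1 d light (adjusted p = 0.0963) or replicate 1 of 7 d light (0.0812), and in DESeq2 (0.059), with total-count scaling (0.0623) and with the length trend removed (0.0851). The CYP81D4 model (Aa31LG6G14200), next to it in identifier order, had 132, 124 and 137 scaled CPM after 7 d, against 219, 211 and 207 after 1 d. It fell without overlap, at -0.70 ± 0.10 (SE, adjusted p = 4.37e-05), and so did the CYP81K2 model (Aa31LG4G8430), also named after its values were seen, at -0.75 ± 0.19 (SE, adjusted p = 0.00404).

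The CYP709B2 model (Aa31LG1G28320), the highest per length in every condition, had 352, 382 and 487 scaled CPM after 7 d, against 186, 194 and 164 after 1 d. All 7 d libraries were above all 1 d libraries, at 1.17 ± 0.19 (SE, adjusted p = 0.000143). The CYP704A2 model (Aa31LG1G27010) had 75.7, 90.1 and 62.1 scaled CPM after 7 d, against 34.6, 34.0 and 33.5 after 1 d. It rose without overlap, at 1.17 ± 0.16 (SE, adjusted p = 4.48e-05). A CYP706A1 model (Aa31LG6G4640) had 12.5, 27.3 and 0 scaled CPM after 7 d, against 0.501, 3.54 and 3.42 after 1 d. One 7 d library was at 0 and another above all others, so the call at 2.50 ± 0.81 (SE, adjusted p = 0.0169) depended on single libraries. The adjusted p was 0.19 in DESeq2, 0.175 without replicate 2 of 7 d light and 0.0675 without replicate 1 of 1 d light.

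Seeds at 14 d were set against seeds at 7 d to ask what a further week of light changes. A single P450 model was called. Of the 69 tested models, 1 fell and 0 rose in edgeR's quasi-likelihood test, against 0.144% of all tested genes called lower, 0.163% higher and 0.307% in all. DESeq2 also called 1 lower and 0 higher, and 18 of the 69 models (26.1%) had an unadjusted p under 0.05, against 1813 of all 15301 tested genes (11.8%). The median log2 fold change was -0.01 over the P450 models and -0.01 over all tested genes. The called model was CYP86A2 (Aa31LG5G580), with 74.4, 56.8 and 57.5 scaled CPM after 14 d, against 123, 108 and 112 after 7 d. No 14 d library reached the lowest 7 d library, at a log2 fold change of -0.89 ± 0.14 (SE, adjusted p = 0.0127). It no longer passed when replicate 1 of 7 d light was left out (adjusted p = 0.099), replicate 2 of 7 d light (0.0677) or replicate 3 of 14 d light (0.115), nor in a fit of only the 6 libraries compared (0.127).

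This comparison depended on replicate 2 of 14 d light, whose P450 counts differed from replicates 1 and 3 by a chi-square per degree of freedom of 5.05 and 3.39. Without it, 9 P450 models were called higher and 3 lower, against 5.99% of all tested genes higher and 4.84% lower. Those higher were CYP714A1 (Aa31LG11G4110), CYP71B13 (Aa31LG11G4390), CYP76C4 (Aa31LG1G27040, named after its values were seen), CYP709B2 (Aa31LG1G28320), CYP96A2 (Aa31LG2G5050), CYP71B10 (Aa31LG3G13150), CYP90C1 (Aa31LG6G13180), CYP81D4 (Aa31LG6G14200) and CYP81D2 (Aa31LG6G14260). CYP714A1 had 60.2, 43.7 and 74.7 scaled CPM after 14 d, against 30.5, 27.7 and 43.1 after 7 d. Its groups did not overlap even with all libraries, and without that replicate the log2 fold change was 1.07 (adjusted p = 0.0237). The 2 further models called lower beside CYP86A2 were CYP97C1 (Aa31LG10G8300), at -0.69 (adjusted p = 0.0438), and CYP81F1 (Aa31LG6G14270), at -1.02 (adjusted p = 0.0296). CYP97C1 had 22.4, 37.6 and 32.1 scaled CPM after 14 d, against 47.4, 51.0 and 37.4 after 7 d, and replicate 2 was the highest of the 14 d libraries in both genes. Without replicate 3 of 7 d light, 2 of 74 tested models were called lower and 0 higher, beside 0.364% and 0.268% of all tested genes.

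Over the 3 light times, CYP97C1 thus averaged 72.7 ± 2.36 scaled CPM after 1 d, 45.3 ± 7.04 after 7 d and 30.7 ± 7.67 after 14 d (SD, n = 3 each). CYP90C1 averaged 61.8 ± 2.62 after 1 d, 98.9 ± 4.94 after 7 d and 123 ± 4.81 after 14 d. The step from 1 d to 7 d passed the test in both genes, and the step from 7 d to 14 d passed in neither with all libraries.

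The dark-kept seeds ask what a change to darkness does after 7 d of light. They were compared with seeds kept 14 d in light, which are of equal age, and with seeds at 7 d of light, the stage at which the dark period began. These 2 comparisons share the dark-kept libraries, and the first shares its light group with the comparison of 14 d and 7 d. Compared with 14 d of light, the CYP81D4 and CYP81D2 genes and the suberin gene CYP86B1 fell in dark-kept seeds. A CYP71A26 gene, the cutin gene CYP86A2 and the suberin gene CYP86A1 were higher than at 14 d. So were the brassinosteroid synthesis gene CYP90A1 and a CYP72C1 gene (Aa31LG4G2500) of brassinosteroid inactivation. CYP86A2 and CYP90A1 were not called against 7 d of light. The calls of CYP86B1, CYP86A1 and CYP90A1 depended on single libraries. Against 14 d of light, 6 of the 69 tested models rose and 7 fell, where 6.05% of all tested genes were called higher, 7.03% lower and 13.1% in all. Against 7 d of light, 5 rose and 8 fell, where 8.42% of all tested genes were called higher, 9.99% lower and 18.4% in all. The median log2 fold change of the P450 models was -0.12 and -0.11 in these 2 comparisons, and -0.03 over all tested genes in both.

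Without replicate 2 of 14 d light, 6 of 70 were higher and 10 lower against 14 d of light, beside 7.39% and 7.19% of all tested genes, and 10 and 10 against 7 d of light, beside 12.4% and 12.3%. Without replicate 3 of 7 d light, 7 of 74 were higher and 8 lower against 14 d, beside 6.55% and 7.55%, and 7 and 12 against 7 d, beside 11.2% and 12.3%. Set against the fit of all libraries, the shares over all genes rose in each of these fits, though not in proportion to the counts of P450 models. Those counts rose as well, except that 6 were again higher against 14 d without replicate 2 of 14 d light. In fits of only the 6 libraries compared, 4 were higher and 3 lower against 14 d, and 3 and 5 against 7 d. Of all genes called in those fits, 42.6% and 46.6% were higher. The shares over all tested genes in those fits are not given here. Of the 13 calls against 14 d, 7 held whichever single library was left out, and 5 held under all alternatives. With libraries scaled by total counts, 4 models were higher and 9 lower against 7 d of light, and 34.6% of all called genes were then higher, against 45.7% with TMM. The summed level of the root markers was 50.9 to 66.7 scaled CPM in dark-kept seeds, against 64.1 to 76.8 after 14 d, and that of the endosperm markers 207 to 245 in dark-kept seeds, against 189 to 219 after 14 d. Against 14 d, 1 of the 3 tested endosperm models was called higher and 0 lower, and the 1 tested root model was not called. Their part in the P450 results was not tested.

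Of the 7 models that fell against 14 d of light, 3 lay in the run of 6 P450 models on linkage group 6. The CYP81D4 model (Aa31LG6G14200) had 55.3, 54.4 and 53.6 scaled CPM in dark-kept seeds, against 158, 142 and 171 in seeds kept 14 d in light. The dark-kept libraries agreed within 0.810 scaled CPM (SD) and were far below the light libraries, at a log2 fold change of -1.52 ± 0.11 (SE, adjusted p = 2.04e-06), the smallest adjusted p among the 69 tested models in this comparison. Against 7 d of light, at 132, 124 and 137, it was -1.26 ± 0.11 (SE, adjusted p = 9.88e-06). The CYP81D2 model (Aa31LG6G14260) had 176, 169 and 169 scaled CPM in dark-kept seeds, against 587, 370.1 and 492 in seeds kept 14 d in light. It fell without overlap, at -1.49 ± 0.16 (SE, adjusted p = 7.08e-05) against 14 d and -1.09 ± 0.16 (SE, adjusted p = 0.000662) against 7 d.

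The model Aa31LG6G14190, paired with AT3G61035, a P450 without a family number, was close to undetected in darkness. It had already fallen after 7 d against 1 d of light, at -0.94 ± 0.23 (SE, adjusted p = 0.00296). Its counts were 0, 1 and 0 in dark-kept seeds, against 5, 7 and 5 after 14 d of light and 17, 12 and 9 after 7 d. That is 16.6-fold lower (exact 95% interval 2.60 to 694) than after 14 d and 26.1-fold lower (exact 95% interval 4.42 to 1059.7) than after 7 d, for counting error only, with adjusted p of 0.00585 and 0.000681. A second model paired with AT3G61035 (Aa31sc20G210, named after its values were seen) averaged 23.5 ± 8.82 scaled CPM in dark-kept seeds and 27.6 ± 4.77 after 14 d (SD, n = 3 each) and was not called.

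The other 2 tested models of the run did not pass the test. The CYP81D3 model (Aa31LG6G14210) had 46.5, 43.8 and 34.8 scaled CPM in dark-kept seeds, against 43.7, 34.3 and 36.6 in seeds kept 14 d in light, values that overlap, at 0.15 ± 0.15 (SE, adjusted p = 0.577). The CYP81F1 model (Aa31LG6G14270) had 24.3, 27.6 and 21.0 scaled CPM in dark-kept seeds, against 16.5, 35.9 and 14.9 in seeds kept 14 d in light, also overlapping, at -0.05 ± 0.27 (SE, adjusted p = 0.936). The CYP81D4, CYP81D3 and CYP81D2 models span 22167, 7516 and 11283 bp, and reads common to these close relatives could be shared between them. Outside the run, the CYP81D1 model (Aa31LG9G17920) averaged 54.9 ± 5.52 in dark-kept seeds and 47.8 ± 6.29 after 14 d, at 0.21 ± 0.14 (SE, adjusted p = 0.353).

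**Figure D5:**
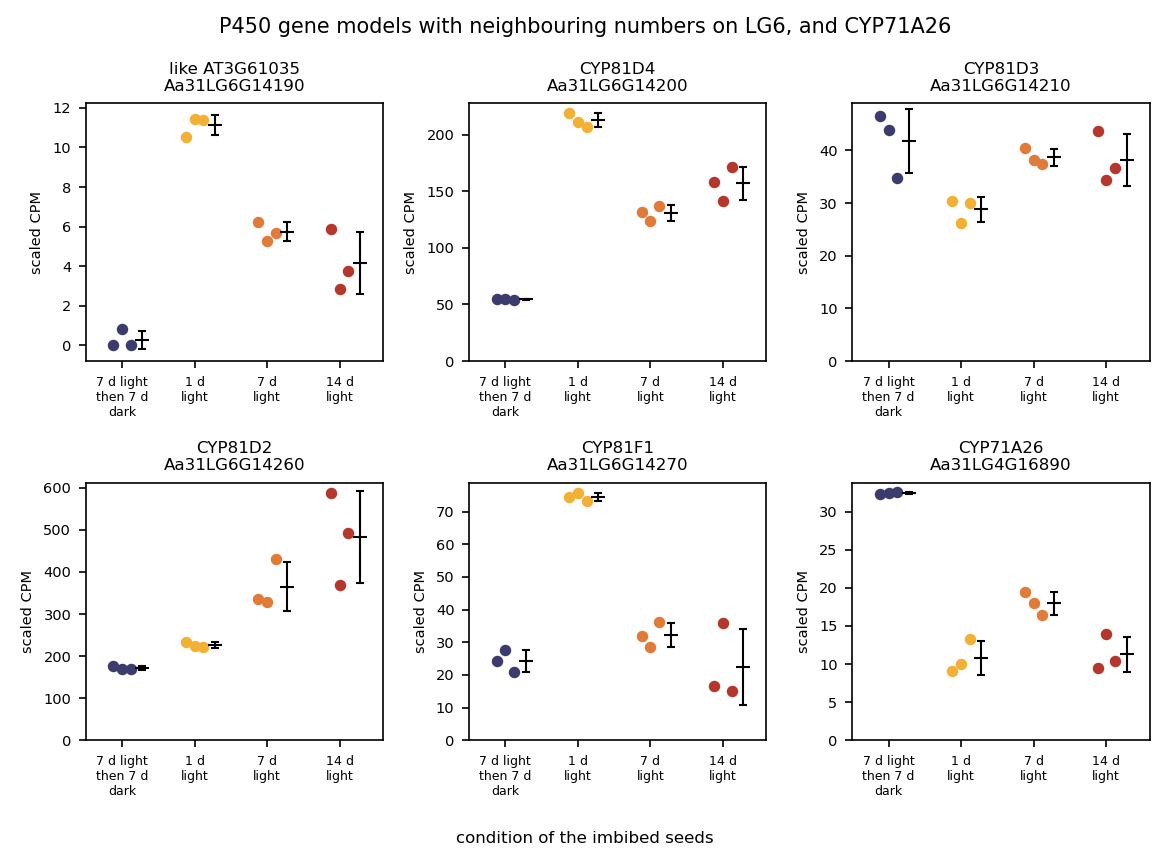
Scaled CPM (y axis) of 5 P450 gene models with close identifier numbers on linkage group 6 and of the CYP71A26 model, in each library of the 4 conditions (x axis); points are libraries and black bars the mean ± SD of 3. Aa31LG6G14190, CYP81D4 and CYP81D2 are lowest in dark-kept seeds, CYP81D3 and CYP81F1 are not, and the 3 dark-kept libraries of CYP71A26 are above all others.

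The CYP71A26 model (Aa31LG4G16890), for which no role is stated here, had 32.3, 32.5 and 32.6 scaled CPM in dark-kept seeds, against 9.45, 13.9 and 10.5 in seeds kept 14 d in light. Dark-kept libraries agreed almost exactly and lay above every light library, including the 7 d values of 19.5, 18.0 and 16.5. The log2 fold change was 1.44 ± 0.20 (SE, adjusted p = 0.000493) against 14 d and 0.84 ± 0.17 (SE, adjusted p = 0.00508) against 7 d, and both calls held whichever library was left out.

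The family 86 genes again differed among themselves. CYP86A2 (Aa31LG5G580) had 126, 125 and 107 scaled CPM in dark-kept seeds, against 74.4, 56.8 and 57.5 in seeds kept 14 d in light. It was higher without overlap, at 0.95 ± 0.14 (SE, adjusted p = 0.000725), whereas against 7 d of light it differed by 0.06 ± 0.13 (SE, adjusted p = 0.796), which did not pass. The dark-kept libraries overlap with the 7 d libraries, at 123, 108 and 112. CYP86A1 (Aa31LG1G18890) had 36.4, 39.8 and 33.2 scaled CPM in dark-kept seeds, against 18.9, 20.8 and 20.2 in seeds kept 14 d in light. It was above both light groups, at 0.84 ± 0.20 (SE, adjusted p = 0.0166) against 14 d and 0.75 ± 0.19 (SE, adjusted p = 0.0156) against 7 d. The first of these did not pass without replicate 3 of 14 d light (adjusted p = 0.0532), replicate 1 of the dark-kept seeds (adjusted p = 0.0535) or replicate 2 of the dark-kept seeds (adjusted p = 0.0541), and the second did not pass without replicate 2 of 7 d light (adjusted p = 0.0643), replicate 1 of the dark-kept seeds (adjusted p = 0.0518) or replicate 2 of the dark-kept seeds (adjusted p = 0.0598). CYP86B1 (Aa31LG3G18320) had 0, 0 and 2 counts in dark-kept seeds, against 4, 10 and 11 after 14 d and 7, 14 and 4 after 7 d. It was 12.2-fold lower (exact 95% interval 3.04 to 106) than after 14 d and 8.60-fold lower (exact 95% interval 2.14 to 74.9) than after 7 d, with adjusted p of 0.0158 and 0.0316. The difference from 14 d did not pass without replicate 3 of 14 d light (adjusted p = 0.0581) or replicate 1 of the dark-kept seeds (adjusted p = 0.0631), nor that from 7 d without replicate 2 of 7 d light (adjusted p = 0.117), replicate 1 of the dark-kept seeds (adjusted p = 0.113) or replicate 2 of the dark-kept seeds (adjusted p = 0.097). CYP86A4 (Aa31LG1G10970) had 5.39, 4.87 and 3.32 scaled CPM in dark-kept seeds, against 2.36, 4.08 and 3.74 in seeds kept 14 d in light and was not called, at 0.27 ± 0.39 (SE, adjusted p = 0.775).

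Of the hormone genes, the brassinosteroid enzyme gene CYP90A1 (Aa31LG11G6700) had 61.3, 56.0 and 56.4 scaled CPM in dark-kept seeds, against 37.8, 41.3 and 38.1 in seeds kept 14 d in light. All dark-kept libraries were above all 14 d libraries, at 0.56 ± 0.13 (SE, adjusted p = 0.0141). The adjusted p was 0.0522 without replicate 3 of 14 d light and 0.0579 without replicate 1 of the dark-kept seeds, and 0.052 in a fit of only the 6 libraries compared. Against 7 d of light it was 0.30 ± 0.12 (SE, adjusted p = 0.106), which did not pass, but it was 0.0435 with the length trend removed. The CYP72C1 model Aa31LG4G2500, paired with a gene of brassinosteroid inactivation, had 104, 96.6 and 101 scaled CPM in dark-kept seeds, against 64.9, 67.8 and 72.5 in seeds kept 14 d in light. The 3 dark-kept libraries were above every light library, at 0.55 ± 0.11 (SE, adjusted p = 0.00485) against 14 d and 0.54 ± 0.10 (SE, adjusted p = 0.00367) against 7 d. The first of these had an adjusted p of 0.146 with the length trend removed. The second CYP72C1 model (Aa31LG7G1890) averaged 62.2 ± 8.25 in dark-kept seeds and 60.9 ± 6.83 after 14 d (SD, n = 3 each), at 0.06 ± 0.14 (SE, adjusted p = 0.847). CYP90B1, CYP90C1 and CYP90D1 were not called in either comparison, although CYP90B1 (Aa31LG4G18830) passed as lower against 14 d without replicate 2 of the dark-kept seeds (adjusted p = 0.0272). Nor was CYP711A1 called, with 6.07, 4.06 and 2.21 scaled CPM in dark-kept seeds, against 4.72, 5.72 and 5.98 in seeds kept 14 d in light.

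The carotenoid gene CYP97C1 (Aa31LG10G8300) had 24.3, 21.1 and 17.7 scaled CPM in dark-kept seeds, against 22.4, 37.6 and 32.1 in seeds kept 14 d in light. These values overlap slightly, and the difference of -0.63 ± 0.20 (SE, adjusted p = 0.0575) did not pass. It passed, as lower, without replicate 1 of 14 d light (adjusted p = 0.0249) or replicate 3 of 7 d light (0.035), and with the length trend removed (0.0378). Against 7 d of light, at 47.4, 51.0 and 37.4, it fell without overlap, at -1.13 ± 0.18 (SE, adjusted p = 0.00136). The CYP706A6 model (Aa31LG9G10280) had 52.6, 56.8 and 44.2 scaled CPM in dark-kept seeds, against 112, 74.7 and 109 in seeds kept 14 d in light. It was lower without overlap, at -0.92 ± 0.21 (SE, adjusted p = 0.0123), with adjusted p of 0.0571 without replicate 3 of 14 d light and 0.0665 without replicate 3 of the dark-kept seeds. Against 7 d of light CYP706A6 was not called, at -0.55. There it passed as lower without replicate 2 of 7 d light (adjusted p = 0.0439) or replicate 2 of 14 d light (0.0434), and with total-count scaling (0.0499). The CYP94D2 model (Aa31LG10G11450), one of the most abundant per length, had 65.4, 60.9 and 68.0 scaled CPM in dark-kept seeds, against 87.4, 86.2 and 94.1 in seeds kept 14 d in light. Its difference from 14 d, lower by 0.46 ± 0.10 on the log2 scale (SE, adjusted p = 0.00983), was small but without overlap. That difference did not pass in a fit of only the 6 libraries compared (adjusted p = 0.0636). Against 7 d of light CYP94D2 was not called, at a log2 fold change of -0.16. The CYP72A15 model (Aa31LG8G1920) averaged 267 ± 16.8 in dark-kept seeds and 371 ± 49.1 after 14 d. Its call at -0.47 ± 0.13 (SE, adjusted p = 0.0331) was lost in 8 of the 12 fits that left out 1 library, with adjusted p up to 0.134. Against 7 d of light it was not called, at -0.17. The CYP77A5 pseudogene model (Aa31LG8G5120) averaged 41.1 ± 1.20 in dark-kept seeds and 26.3 ± 3.19 after 14 d. Its call at 0.60 ± 0.17 (SE, adjusted p = 0.0367) was lost in 7 of 12, with adjusted p up to 0.112. Against 7 d of light it was called higher at 0.51, a call lost in 9 of 12 such fits, with adjusted p up to 0.155.

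Against 7 d of light alone, 4 further models passed. The CYP81K2 model (Aa31LG4G8430) had 8.09, 7.31 and 12.2 scaled CPM in dark-kept seeds, against 24.3, 20.7 and 17.7 after 7 d, and fell without overlap at -1.16 ± 0.27 (SE, adjusted p = 0.0106). The adjusted p was 0.0506 without replicate 1 of the dark-kept seeds. A short CYP705A21 model of 537 bp (Aa31LG1G8860) fell at -1.76 ± 0.51 (SE, adjusted p = 0.0307) and the CYP704A2 model (Aa31LG1G27010) at -0.61 ± 0.17 (SE, adjusted p = 0.0258), calls lost in 4 and 5 of 12 such fits, with adjusted p up to 0.116 and 0.109. The model Aa31sc129G50, paired with AT3G44970, rose at 0.51 ± 0.14 (SE, adjusted p = 0.024) and lost its call without replicate 1 of 7 d light (adjusted p = 0.0669), replicate 2 of 7 d light (adjusted p = 0.102) or replicate 1 of the dark-kept seeds (adjusted p = 0.12), and in a fit of only the 6 libraries compared (0.0566).

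P450 enzymes described under other names fall outside the rule and are given for comparison. Of 12 such models in the lists of known roles, 7 were tested. The cinnamate hydroxylase gene CYP73A5 (Aa31LG5G6280), which opens the phenylpropanoid pathway, averaged 52.7 ± 2.81 scaled CPM in dark-kept seeds and 261 ± 27.3 after 14 d of light (SD, n = 3 each), at a log2 fold change of -2.30 ± 0.13 (SE, adjusted p = 3.1e-07). Against 7 d of light it was -2.11 ± 0.13 (SE, adjusted p = 6.3e-07). After 7 d of light, the gibberellin gene CYP701A3 (Aa31LG11G4920) averaged 241 ± 53.3, against 143 ± 2.36 after 1 d. The brassinosteroid gene CYP85A2 (Aa31LG2G3780) averaged 6.37 ± 2.43 after 7 d and 24.9 ± 1.03 after 1 d, and the hydroperoxide lyase gene CYP74B2 (Aa31LG9G2000) 8.82 ± 0.964 after 7 d and 59.7 ± 2.93 after 1 d. Their log2 fold changes were 0.76 ± 0.22 (SE, adjusted p = 0.00933), -1.93 ± 0.22 (SE, adjusted p = 8.43e-06) and -2.77 ± 0.15 (SE, adjusted p = 6.91e-08).

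The phenylpropanoid enzymes outside the P450s included 9 tested models, of which 3 fell in dark-kept seeds against 14 d of light and 5 against 7 d. Of all tested genes, 7.03% and 9.99% were called lower in these comparisons. The median log2 fold changes of the 9 models were -0.69 and -0.73, against -0.03 over all tested genes in both. The phenylalanine ammonia-lyase gene PAL1 (Aa31LG5G22310) averaged 23.9 ± 5.05 in dark-kept seeds and 341 ± 41.8 after 14 d, at -3.81 ± 0.15 (SE, adjusted p = 2.99e-08). The ligase gene 4CL1 (Aa31LG10G3110) averaged 2.58 ± 1.98 and 17.5 ± 2.35 in these groups, at -2.75 ± 0.50 (SE, adjusted p = 0.00323). The CYP98A3 model (Aa31LG3G1130), which acts further along that pathway, had 13.5, 4.06 and 6.64 scaled CPM in dark-kept seeds, against 18.9, 11.8 and 16.4 in seeds kept 14 d in light. Its groups overlap, and the difference of -0.84 ± 0.37 (SE, adjusted p = 0.16) did not pass the test. Without replicate 1 of the dark-kept seeds it passed as lower against 14 d (adjusted p = 0.0455) and against 7 d (0.0274). Among 5 tested jasmonate enzymes outside the P450s, 3 rose and 2 fell after 7 d against 1 d of light. Of all tested genes, 30.7% were called higher and 29.7% lower there. In dark-kept seeds against 14 d of light 3 of these enzymes fell, where 7.03% of all tested genes were called lower. The 3 jasmonate P450 models matched by the rule were below the expression filter.

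P450s depend on reductases and cytochrome b5 for electrons. Of 8 tested models of such redox partners, 2 rose and 4 fell after 7 d against 1 d of light. Beside this, 30.7% of all tested genes were called higher and 29.7% lower. The reductase gene ATR2 (Aa31LG2G20320) averaged 268 ± 18.4 after 7 d and 153 ± 9.27 after 1 d (SD, n = 3 each), at 0.81 ± 0.12 (SE, adjusted p = 6.45e-05), and ATR1 (Aa31LG4G9620) 230.4 ± 14.1 after 7 d and 192 ± 3.79 after 1 d, at 0.26 ± 0.10 (SE, adjusted p = 0.0296). The cytochrome b5 genes CB5-A, CB5-B and CB5-E and the b5 reductase gene CBR1 fell, with log2 fold changes between -1.17 and -0.76. In dark-kept seeds against 14 d of light, 2 of the 8 fell, where 7.03% of all tested genes were called lower. ATR2 averaged 208 ± 9.79 in dark-kept seeds and 317 ± 44.3 after 14 d, at -0.60 ± 0.12 (SE, adjusted p = 0.00508), and CB5-B (Aa31LG5G4370) 5.73 ± 1.46 in dark-kept seeds and 13.1 ± 1.62 after 14 d, at -1.19 ± 0.28 (SE, adjusted p = 0.0128).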

How the data were processed

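Per the labels' protocols, RNA-seq libraries of imbibed seeds were prepared from poly(A)-selected RNA by means of a SENSE kit. The submitters' processing notes name bcl2fastq 2.17.1, Trimmomatic, Bowtie2 2.3.5.1, HTSeq 0.11.2 and the build name TAIR10. The handling of strand, duplicates and reads with several matches is not given, and reads of near-identical or overlapping genes cannot be assigned with certainty. The authors deposited read counts per gene model, and the tests used these counts. The authors also deposited RPKM, which equals the count divided by gene length and by the library's total count, and it was used to compare levels between genes.

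Counts of all 12 libraries were fitted in edgeR 4.0.16 (R 4.3.3) with TMM scaling, its default expression filter and 1 mean per condition. A model high in 1 condition alone could pass this filter through that condition. The direction of its change is then partly set by the filter. Each comparison was tested by the quasi-likelihood F-test, and p-values were adjusted by Benjamini-Hochberg across the 15301 genes that passed the filter, with calls at under 0.05. The script was tested on simulated data. Standard errors are the log2 fold change divided by the square root of F. Intervals on sums of few counts are exact, at 95%, and cover counting error only. Whether replicates are separate batches of seed is not stated in the labels, so p-values cover only the spread among the sequenced samples, part of which may be technical. Common dispersion was 0.0177.

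Named models were, per comparison, the 10 highest and 10 lowest called log2 fold changes at a mean of at least 2 CPM, all tested models of the role lists and the 8 highest per length in each condition; exceptions are marked. The models and role lists were chosen with earlier results of these data known. Alternatives were DESeq2 1.42.0, total-count scaling, no expression filter, a correction for gene length, fits of only the 6 libraries compared, a replicate block and leaving out each library.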

Additional observations from a re-analysis of the deposited data

How the results depend on the processing

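No called P450 model changed its direction under any alternative. In every fit that left out 1 library, 33 of the 45 calls of 7 d against 1 d remained, 0 of 1 of 14 d against 7 d, 7 of 13 of dark-kept seeds against 14 d and 6 of 13 of dark-kept seeds against 7 d; under all alternatives together, 31, 0, 5 and 6 remained. In the fits that left out 1 library, the counts called higher ranged from 22 to 30, 0 to 9, 3 to 7 and 2 to 10 in these 4 comparisons, and those called lower from 16 to 19, 0 to 3, 4 to 10 and 5 to 12. The share of all tested genes called higher ranged from 24.7% to 32%, 0.0455% to 5.99%, 3.29% to 7.39% and 4.57% to 12.4%. The share called lower ranged from 27.4% to 33.4%, 0.0319% to 4.84%, 4.08% to 7.55% and 5.64% to 12.3%. In fits of only the 6 libraries compared, 0 models fell in 14 d against 7 d, 3 fell in dark-kept seeds against 14 d, and 3 rose and 5 fell in dark-kept seeds against 7 d; the cause was not tested beyond the smaller number of libraries. With the trend of fold change on gene length removed, 8 rose in dark-kept seeds against 7 d, and the cause was not tested. DESeq2 called 23 higher and 16 lower, 0 and 1, 5 and 7, and 4 and 8 in the same order. A replicate block gave 26 higher and 15 lower, 0 and 1, 5 and 6, and 4 and 8. The replicate numbers were not taken as pairing the libraries, because the correlation of same-numbered libraries' deviations ran from -0.468 to 0.475. Models with few reads, such as CYP86B1 and Aa31LG6G14190 in dark-kept seeds, are limited by depth. The expression filter left out 90 of the 159 models, and without it 31 were higher and 23 lower at 7 d against 1 d. Shares over all tested genes are given here only for the fits that left out 1 library. The counts from the other alternatives show only how far the calls depend on the processing.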

Other observations

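Some P450 models below the expression filter, chosen after their values were seen, were read mostly or wholly at 1 d of light. They entered the alternative fit with no expression filter, from which the adjusted p of 7 d against 1 d is given beside the counts. Aa31LG9G3780, paired with AT3G44970, had 11, 9 and 8 counts after 1 d of light and no count in the other 9 libraries (adjusted p = 0.00219). A CYP708A1 model (Aa31LG9G3820) had 4, 10 and 5 after 1 d and likewise none elsewhere (adjusted p = 0.0139). The CYP94C1 model (Aa31LG5G8290), whose enzyme oxidises jasmonate conjugates, had 7, 2 and 2 after 1 d and none elsewhere, and was not called in that fit. A CYP96A4 model (Aa31LG6G10740) had 0, 1 and 3 counts in dark-kept seeds, 19, 16 and 28 at 1 d, 2, 0 and 4 at 7 d and 2, 5 and 1 at 14 d (adjusted p = 0.00215). The 1 d libraries are the deepest, so a count of 0 in the other libraries allows more there than it would at equal depth.

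Other models were uneven within 7 d of light. A CYP71A22 model (Aa31LG11G9680) had 42, 31 and 0 counts in the 3 libraries, a CYP71A20 model (Aa31LG11G9660) 14, 25 and 1, and the CYP79B2 model (Aa31LG6G15320), which makes indole aldoxime for glucosinolates and camalexin, 2, 16 and 1. The tested CYP706A1 (Aa31LG6G4640) and CYP83B1 (Aa31sc336G10) models had 34, 62 and 0 and 19, 34 and 3 counts in these libraries. The CYP71A22 and CYP71A20 models were called higher at 7 d against 1 d in the fit with no expression filter, with adjusted p of 0.00109 and 0.00114. In all 5 models, which are given here for being uneven, replicate 3 was lowest. Its total of counts was also the lowest of the 3 libraries, at 1596668, against 2689668 in replicate 1 and 2297530 in replicate 2. The part of depth in these counts was not tested.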
